A study of Mus musculus with 15 samples.

Results

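The 29 genes described here carry the breakdown of the branched-chain amino acids leucine, isoleucine and valine, together with the use of ketone bodies. They were taken as a list of gene names and looked up by Ensembl identifier in the count table. All 29 were found among its 43352 genes, and all 29 passed the filter on low counts that left 19645 genes to test. Poly(A) RNA had been sequenced from whole perivascular adipose tissue, the fat that wraps the aorta, of 11-week-old mice. The thoracic depot is called tPVAT and the abdominal depot aPVAT. Control mice had the genotype Prdm16flox, so that they carried floxed alleles of Prdm16 without a Cre. The cKO mice were Prdm16flox, AdipoQCre+, in which a Cre recombinase under the regulatory sequence of the adiponectin gene acts in fat cells and leaves the other cells of the tissue with their floxed alleles. There were 4 libraries of tPVAT control, 4 of tPVAT cKO, 4 of aPVAT control and 3 of aPVAT cKO (numbers 1, 3 and 4; number 2 was not analysed here). The labels give no sex, and do not say whether the libraries of a group came from separate mice, so the p-values measure only the spread between these libraries.

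Branched-chain amino acids enter a cell through transporters of the cell surface, lose their amino group to a transaminase, and are then committed to breakdown in mitochondria by the branched-chain ketoacid dehydrogenase complex. From there each amino acid follows its own chain of enzymes, leucine to acetyl-CoA and acetoacetate, valine to propionyl-CoA, and isoleucine to both acetyl-CoA and propionyl-CoA. Brown fat is known to take up and burn these amino acids during heat production, and white fat to use them as a source of carbon for new fatty acids. Ketone bodies are activated in mitochondria to acetoacetyl-CoA, and the thiolase that splits it is also the last enzyme of isoleucine breakdown.

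Library totals ran from 37761133 to 68735385 counts, and aPVAT cKO 4 was the smallest. That library also stood apart in its share of structural RNA, 0.125% against 0.00399% to 0.02% in the other libraries. Genes of the mitochondrial genome took 33.4% to 36.4% of the counts in tPVAT controls, 26.5% to 31.6% in tPVAT cKO, 13.0% to 16.0% in aPVAT controls and 13.3% to 13.9% in aPVAT cKO. The 26.5% was that of tPVAT cKO 2, and the others of its group were at 30.1% to 31.6%. This library was also the lowest tPVAT cKO for many of the 29 genes, among them Bckdha, Bckdk, Acat1, Mcee and Oxct1. For others, such as Slc43a1 and Hsd17b10, it was the highest. Prdm16 itself was at 47.3 ± 6.04 CPM (SD, n = 4) in tPVAT controls and 22.4 ± 1.07 (n = 4) in tPVAT cKO, and at 23.7 ± 2.22 (n = 4) and 16.1 ± 1.99 (n = 3) in aPVAT. CPM is the count of a gene scaled to a fixed library total, here after TMM scaling. No cKO library reached a control of its depot, with 21.2 to 23.8 CPM against 41.1 to 55.6 CPM in tPVAT and 14.7 to 18.3 CPM against 21.4 to 26.8 CPM in aPVAT. The labels do not say which exon is floxed, and the counts are over the whole gene. Of the 12 adipocyte markers 0 were at 0 in any group. Prdm16 fell in both depots (log2 fold change -1.08, adjusted p = 2.22e-06, and -0.57, adjusted p = 0.00992). In such bulk samples, fewer cells of a type and less RNA per cell cannot be told apart. Adjusted p-values here and below come from edgeR's quasi-likelihood F test with Benjamini-Hochberg adjustment over the 19645 genes, and a gene is called changed when its adjusted p is under 0.05.

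In thoracic fat, 12 of the 29 genes changed in the cKO, 3 up and 9 down. The 3 that rose were the transporter genes Slc3a2 and Slc43a1 and the mitochondrial transaminase gene Bcat2. The 9 that fell were another transporter gene, Slc43a2, and 8 genes of mitochondrial enzymes, Bckdha, Bckdk, Ivd, Acad8, Hsd17b10, Acat1, Mcee and Oxct1. The share of the 29 genes called was 41.4%, where 12.0% of all 19645 genes were called, a description of this chosen list and not a test of it. The 3 higher genes stand beside a background of 5.44% of genes called higher, and the 9 lower genes beside 6.61% called lower. The values of the 4 cKO libraries and the 4 controls did not overlap for 14 of the 29 genes, which held for 23.2% of all genes. The median log2 fold change of the 29 genes was -0.08, against -0.01 for all genes tested, and the size of the changes stayed at or under 0.88. In abdominal fat 0 of the 29 genes were called, beside 1.53% of all genes. There 4 genes had an unadjusted p under 0.05, DESeq2 also called 0, and the median log2 fold change was -0.03 against -0.01 for all genes. The groups of abdominal fat did not overlap for 3 of the 29 genes, beside 9.56% of all genes.

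**Figure D1:**
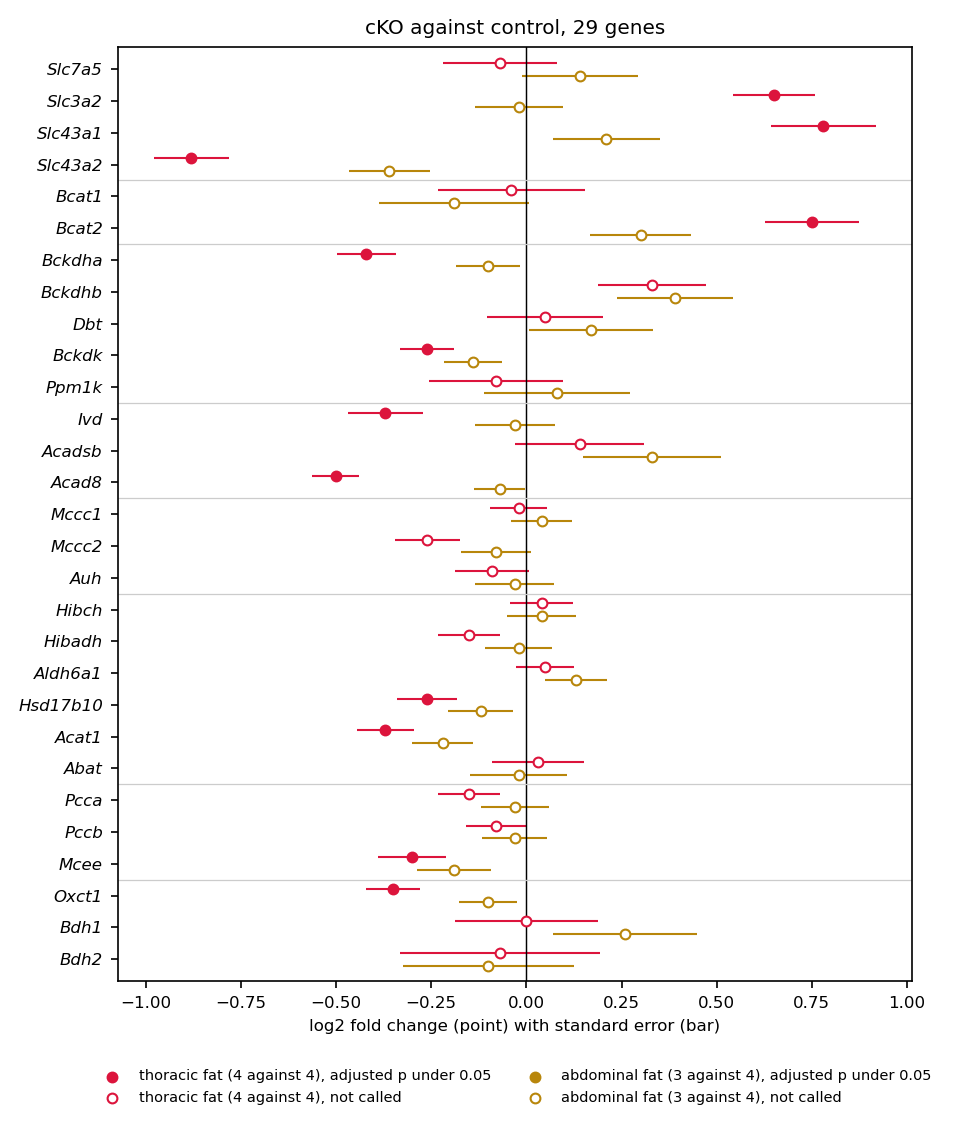
Log2 fold change of cKO against control for each of the 29 genes, with the standard error as a bar, in thoracic fat (4 against 4 libraries) and abdominal fat (3 against 4). Filled points are genes called at an adjusted p under 0.05; the 12 filled points all belong to thoracic fat, and grey lines separate the steps of the pathway.

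At the cell surface, 3 of the 4 transporter genes changed in thoracic fat and they did not move together. Slc43a2 encodes LAT4, a transporter that lets large neutral amino acids down their gradient. It lies on chromosome 11 from 75531694 to 75577575 on the plus strand of GRCm38. Slc43a2 stood at 56.6, 58.4, 46.1 and 59.6 CPM in tPVAT controls 1 to 4, and at 29.3, 28.1, 33.2 and 29.1 CPM in tPVAT cKO 1 to 4. Every cKO library lay under every control, and the cKO mean was 0.542 times that of the controls (log2 fold change -0.88, SE 0.0988, adjusted p = 2.03e-05), the largest change among the 29 genes in this comparison. In aPVAT it was at 35.7, 28.9, 31.1 and 32.0 CPM in controls 1 to 4, and at 24.0, 28.4 and 21.9 CPM in cKO 1, 3 and 4. Those groups did not overlap either, by a narrow gap, but the change of -0.36 did not pass the test (adjusted p = 0.128). The cKO libraries of thoracic fat were thus at about the level of the abdominal controls for Slc43a2. The 120 bases before its first start site are shown because Slc43a2 changed most. They come from the RefSeq promoter table (GRCm38.p6, chr11:75531574-75531693, plus strand), written 5′ to 3′.
Slc43a2: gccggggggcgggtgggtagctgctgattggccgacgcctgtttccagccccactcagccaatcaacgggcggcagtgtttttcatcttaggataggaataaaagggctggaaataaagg

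Slc43a1, on chromosome 2 from 84838850 to 84863594, encodes LAT3, the close relative of LAT4 with the same kind of transport, and moved the other way. It was at 7.48, 9.61, 7.92 and 7.73 CPM in the tPVAT controls and at 12.8, 15.9, 13.3 and 14.3 CPM in tPVAT cKO. All 4 cKO libraries were above all 4 controls (log2 fold change 0.78, SE 0.138, adjusted p = 0.00151). In aPVAT the controls stood at 29.6, 28.5, 29.3 and 30.8 CPM, about the same in each library, while the cKO libraries spread from 24.9 and 33.3 to 44.2 CPM in number 4, and the groups overlapped (0.21, adjusted p = 0.59).

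Slc3a2 encodes the heavy chain, CD98, that carries several amino acid exchangers to the membrane, and Slc7a5 encodes LAT1, the light chain that exchanges branched-chain amino acids for glutamine. Slc3a2 was at 63.0, 78.3, 79.6 and 72.7 CPM in tPVAT controls and at 106, 112, 132 and 111 CPM in tPVAT cKO. The groups lay apart, and the gene rose by 0.65 on the log2 scale (SE 0.108, adjusted p = 9.11e-04). In aPVAT its values overlapped, at 69.1 to 96.6 CPM in controls against 73.8 to 81.4 CPM in cKO (log2 fold change -0.02, adjusted p = 0.969). The partner Slc7a5 was low, at 2.85 to 4.75 CPM in tPVAT controls and 2.84 to 4.17 CPM in tPVAT cKO, and its change of -0.07 did not pass the test (adjusted p = 0.81, 95% interval -0.37 to 0.22). In aPVAT it lay at 5.89 to 8.08 CPM in controls against 8.05 to 8.12 CPM in cKO, again not called (0.14, adjusted p = 0.735). Per kilobase of exon, Slc7a5 stood at 0.0506 ± 0.0129 times the level of Slc3a2 in tPVAT controls and at 0.0306 ± 0.00685 times in tPVAT cKO (SD, n = 4 each), and these ratios overlapped.

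The transaminases differed widely in level. Bcat2 encodes the mitochondrial enzyme, the main form of most tissues, and lies on chromosome 7 from 45570153 to 45589711 on the plus strand. Bcat2 stood at 106, 99.6, 87.8 and 114 CPM in tPVAT controls 1 to 4 and at 170, 174, 164 and 175 CPM in tPVAT cKO 1 to 4. The cKO libraries were close to each other and all above the highest control, and the group means differed by 1.68-fold in the fit (log2 fold change 0.75, SE 0.124, adjusted p = 9.04e-04). In aPVAT it was at 252, 198, 200 and 268 CPM in controls and at 277, 227 and 343 CPM in cKO 1, 3 and 4. Each abdominal library was thus above every thoracic library, whereas the abdominal genotypes overlapped (0.30, adjusted p = 0.36). Bcat1, the cytosolic enzyme known from brain and growing cells, stayed between 2.41 and 4.79 CPM in all 8 thoracic libraries, with no call for genotype (-0.04, adjusted p = 0.929, 95% interval -0.41 to 0.34). Per kilobase of exon, Bcat2 exceeded Bcat1 by 71.6 ± 8.19 times in tPVAT controls (range 64.1 to 82.0) and by 129 ± 31.6 times in tPVAT cKO (range 86.8 to 163; SD, n = 4 each). The 120 bases before the Bcat2 start site are shown as the upstream sequence of the enzyme gene that rose, with the credit, build and direction given for Slc43a2 (chr7:45570033-45570152, plus strand).
Bcat2: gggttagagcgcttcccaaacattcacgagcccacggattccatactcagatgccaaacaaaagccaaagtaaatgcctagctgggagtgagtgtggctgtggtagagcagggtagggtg

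The dehydrogenase complex is the committed step, and of its 3 subunit genes on the list only Bckdha passed the test in thoracic fat. Bckdha encodes the alpha subunit of the decarboxylase, which the kinase of the complex phosphorylates. Its values were 393, 388, 396 and 414 CPM in tPVAT controls and 301, 269, 308 and 313 CPM in tPVAT cKO. The lowest control was well above the highest cKO library, and the gene fell by 0.42 on the log2 scale (SE 0.0779, adjusted p = 0.00218). In aPVAT it was at 163 to 205 CPM in controls against 154 to 183 CPM in cKO, with no call (-0.10, adjusted p = 0.679). Of the exon length of Bckdha, 61.7% is shared with B3gnt8 on the opposite strand, a gene counted at 2.47 ± 0.355 CPM in tPVAT controls (SD, n = 4). Bckdhb encodes the beta subunit that pairs with it, and stood at 90.8, 77.4, 83.1 and 79.9 CPM in tPVAT controls and at 131, 76.5, 116 and 93.9 CPM in tPVAT cKO. The cKO libraries 1 and 3 were high and number 2 was at the level of the controls, and the difference of 0.33 was not called (adjusted p = 0.145), although it was called without tPVAT cKO 2 (0.46, adjusted p = 0.0278). In aPVAT the Bckdhb values did not overlap, 48.4 to 58.3 CPM in controls against 61.2 to 84.4 CPM in cKO, with no call (0.39, adjusted p = 0.281). Dbt, the gene of the transacylase core, ran from 120 to 160 CPM in tPVAT controls and from 122 to 161 CPM in tPVAT cKO (0.05, adjusted p = 0.871).

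The complex is switched off by the kinase encoded by Bckdk and switched on by the phosphatase encoded by Ppm1k. Bckdk was at 119, 121, 118 and 114 CPM in tPVAT controls and at 96.9, 90.3, 101 and 105 CPM in tPVAT cKO, with no overlap. It fell by 0.26 on the log2 scale (SE 0.0708, adjusted p = 0.0223), a call that ended when any of 4 libraries, tPVAT controls 1, 2 and 3 and tPVAT cKO 1, was dropped (adjusted p 0.0508 to 0.0614). Ppm1k overlapped between genotypes at 26.5 to 33.6 and 26.7 to 30.9 CPM (-0.08, adjusted p = 0.828). Per kilobase, Bckdk stood at 0.153 ± 0.00796 times the level of Bckdha in tPVAT controls and at 0.170 ± 0.00312 times in tPVAT cKO (SD, n = 4 each), and the ranges, 0.141 to 0.160 and 0.166 to 0.172, did not overlap. In aPVAT, with 0.202 ± 0.00227 in controls (n = 4) and 0.196 ± 0.00925 in cKO (n = 3), the ranges overlapped.

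**Figure D2:**
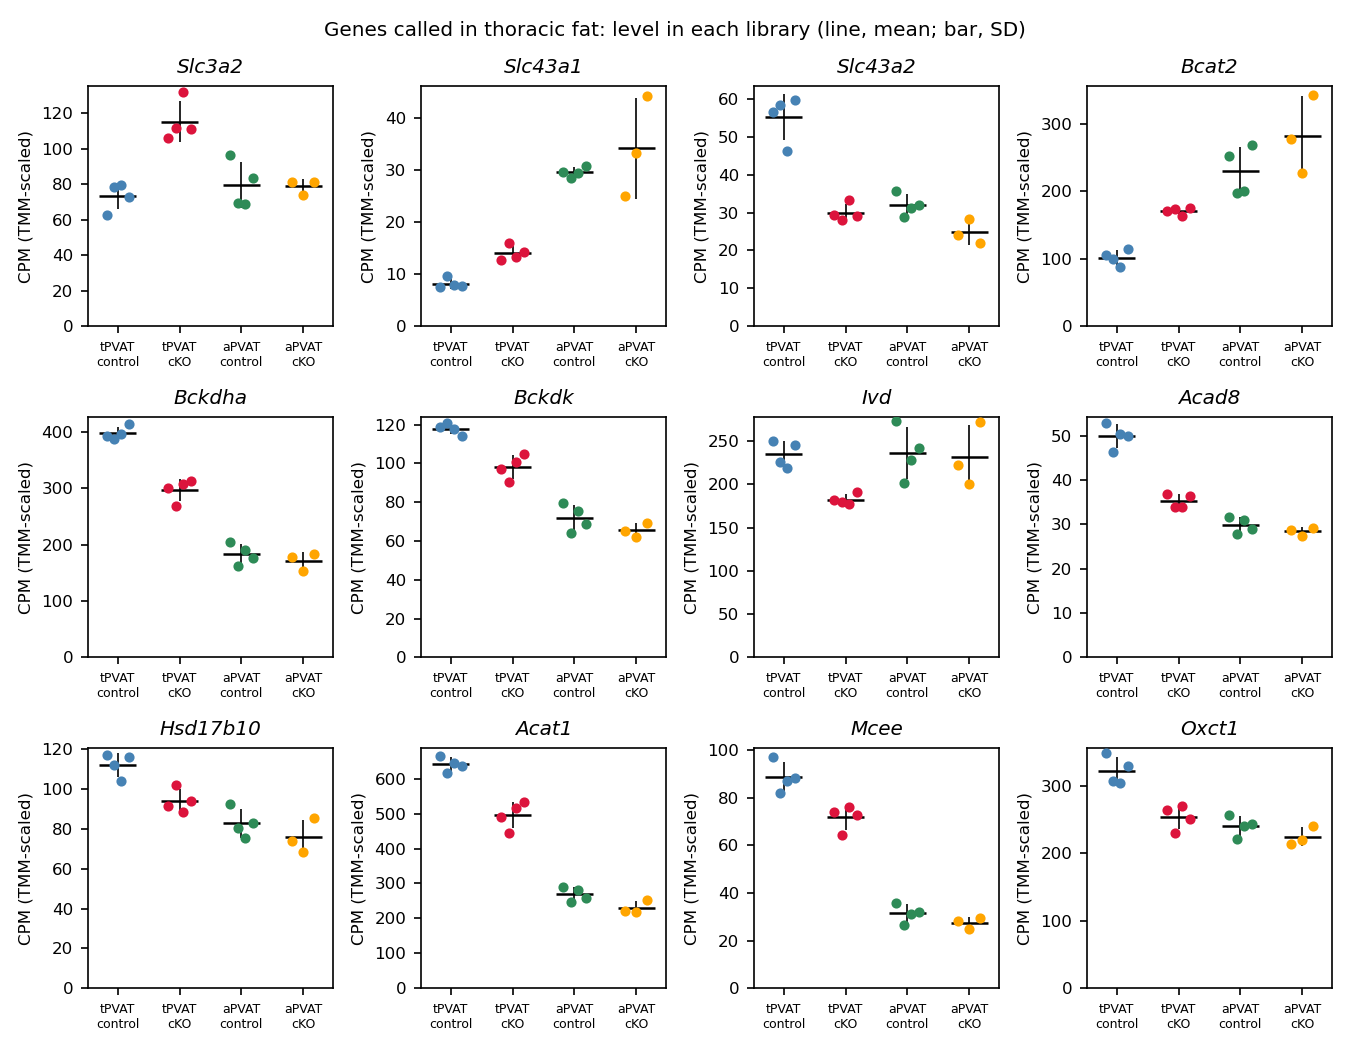
CPM (TMM-scaled) of the 12 genes called in thoracic fat, each point a library, with the group mean as a line and the SD as a bar, in the 4 groups. Slc3a2, Slc43a1 and Bcat2 were higher in tPVAT cKO than in tPVAT controls and the other 9 genes were lower, with no overlap in any panel; the abdominal groups overlapped in every panel except that of Slc43a2.

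The acyl-CoA dehydrogenases take the next step, each for its own amino acid, and 2 of the 3 fell in thoracic fat. Acad8 encodes isobutyryl-CoA dehydrogenase of the valine branch, on chromosome 9 from 26974135 to 26999566 on the minus strand. Acad8 stood at 53.0, 46.4, 50.5 and 50.0 CPM in tPVAT controls and at 37.0, 33.9, 33.9 and 36.5 CPM in tPVAT cKO. The replicates were tight and the groups far apart, at 0.707 times the control level (log2 fold change -0.50, SE 0.0617, adjusted p = 5.57e-05). In aPVAT it was at 31.7, 27.9, 31.1 and 28.9 CPM in controls and at 28.8, 27.4 and 29.2 CPM in cKO, so that the abdominal genotypes overlapped (-0.07, adjusted p = 0.702). Ivd, whose enzyme oxidises isovaleryl-CoA from leucine, was at 250, 226, 219 and 246 CPM in tPVAT controls and at 182, 179, 177 and 191 CPM in tPVAT cKO. Those groups did not overlap (-0.37, SE 0.0975, adjusted p = 0.0211), but Ivd was no longer called once any of 4 libraries was dropped, tPVAT control 1 and 4 and tPVAT cKO 1 and 3 (adjusted p 0.053 to 0.0644). Acadsb, which serves the isoleucine branch, ran from 176 to 202 CPM in tPVAT controls and from 195 to 229 CPM in tPVAT cKO, with no call (0.14, adjusted p = 0.642). The 103 bases before the Acad8 gene of GENCODE M21, which begins upstream of the RefSeq start site (sequence from RefSeq, GRCm38.p6, chr9:26999567-26999669, minus strand, 5′ to 3′), are shown because Acad8 was the gene called for a difference between depots.
Acad8: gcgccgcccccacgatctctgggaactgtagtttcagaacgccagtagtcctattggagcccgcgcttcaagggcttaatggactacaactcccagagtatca

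Of the leucine branch beyond Ivd, 0 of 3 genes were called for genotype in thoracic fat. Mccc1 and Mccc2 encode the biotin-bearing alpha and the beta subunit of methylcrotonyl-CoA carboxylase, which work as a single complex. Mccc1 overlapped at 161 to 189 CPM in tPVAT controls and 165 to 178 CPM in tPVAT cKO (-0.02, adjusted p = 0.911, 95% interval -0.16 to 0.13). Mccc2 was at 135, 122, 114 and 130 CPM in tPVAT controls and at 100, 102, 108 and 110 CPM in tPVAT cKO. Its groups did not overlap, but its change of -0.26 missed the threshold (SE 0.0857, adjusted p = 0.0661) and passed it with DESeq2 (adjusted p = 0.034). Auh, the hydratase that follows, overlapped at 70.3 to 82.2 and 66.0 to 76.3 CPM (-0.09, adjusted p = 0.602).

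Of the other genes of the valine and isoleucine branch, the 2 called in thoracic fat belong to the late isoleucine steps. Hsd17b10 encodes a hydroxyacyl-CoA dehydrogenase of isoleucine breakdown that is also a subunit of the mitochondrial ribonuclease P. It was at 117, 112, 104 and 116 CPM in tPVAT controls and at 91.4, 102, 88.4 and 94.3 CPM in tPVAT cKO. The gap between the groups was narrow (-0.26, SE 0.0791, adjusted p = 0.0455), and Hsd17b10 was no longer called once any of 6 libraries was dropped, tPVAT controls 1, 2 and 4 and tPVAT cKO 1, 3 and 4 (adjusted p 0.0863 to 0.128). Acat1, the thiolase shared with ketone use, lies on chromosome 9 from 53580522 to 53610382. Its values were 665, 615, 645 and 637 CPM in tPVAT controls and 490, 445, 515 and 534 CPM in tPVAT cKO. The groups lay well apart at 0.775 times the control level (-0.37, SE 0.0739, adjusted p = 0.00367). In aPVAT Acat1 was at 290, 247, 281 and 259 CPM in controls and at 222, 218 and 252 CPM in cKO 1, 3 and 4. There cKO 4 lay above control 2, and the change of -0.22 was not called (adjusted p = 0.238) except with library totals taken without mitochondrial genes (-0.26, adjusted p = 0.046).

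Hibch, Hibadh, Aldh6a1 and Abat were not called for genotype, unlike the valine gene Acad8, which was called in thoracic fat as given above. Hibch, the hydrolase that frees hydroxyisobutyrate, overlapped at 183 to 216 and 187 to 215 CPM in tPVAT (0.04, adjusted p = 0.785, 95% interval -0.12 to 0.21). Hibadh, which oxidises that product, did not overlap, at 344 to 385 CPM in tPVAT controls and 304 to 330 CPM in tPVAT cKO, but its difference of -0.15 was not called (adjusted p = 0.25). Aldh6a1, the semialdehyde dehydrogenase that releases propionyl-CoA, overlapped at 548 to 642 and 587 to 634 CPM (0.05, adjusted p = 0.739). Abat, a transaminase best known for breaking down the transmitter GABA, overlapped at 14.7 to 20.6 and 14.5 to 21.1 CPM (0.03, adjusted p = 0.901).

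Propionyl-CoA from valine and isoleucine is carboxylated by the product of Pcca and Pccb, and Mcee encodes the epimerase that prepares the result for the citric acid cycle. Mcee was at 97.3, 82.1, 87.2 and 88.3 CPM in tPVAT controls and at 74.0, 64.3, 76.3 and 72.9 CPM in tPVAT cKO, with no overlap (-0.30, SE 0.0885, adjusted p = 0.0344). Dropping any of 6 libraries, tPVAT controls 1, 3 and 4 and tPVAT cKO 1, 2 and 4, ended that call (adjusted p 0.0616 to 0.109). Pcca overlapped at 214 to 251 and 184 to 225 CPM (-0.15, adjusted p = 0.28). Pccb overlapped at 393 to 412 and 345 to 416 CPM, with tPVAT cKO 4 above all controls (-0.08, adjusted p = 0.59). The 106 bases before the Pccb gene of GENCODE M21, which begins upstream of the RefSeq start site (sequence from RefSeq, GRCm38.p6, chr9:101034899-101035004, minus strand, 5′ to 3′), are shown because they hold the only match found in the search of motifs described further on, an NRF1 core in capitals.
Pccb: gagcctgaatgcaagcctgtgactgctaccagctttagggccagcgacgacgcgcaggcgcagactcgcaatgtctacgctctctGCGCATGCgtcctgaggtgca

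Of the ketone genes, Oxct1 was called in thoracic fat. It encodes the CoA transferase that activates acetoacetate, the step that lets a tissue use ketone bodies, and lies on chromosome 15 from 4026383 to 4155344. Oxct1 stood at 349, 307, 304 and 329 CPM in tPVAT controls and at 264, 230, 270 and 251 CPM in tPVAT cKO. Every cKO library was under every control, at 0.787 times their level (-0.35, SE 0.0709, adjusted p = 0.00431). In aPVAT the values overlapped, at 221 to 257 CPM in controls against 214 to 240 CPM in cKO (-0.10, adjusted p = 0.633). Bdh1, the mitochondrial enzyme that turns hydroxybutyrate into acetoacetate, was near the bottom of the list, at 1.36, 1.74, 2.30 and 1.63 CPM in tPVAT controls and 1.13, 1.84, 2.09 and 1.99 CPM in tPVAT cKO. Its thoracic groups overlapped (0.00, adjusted p = 0.994), whereas in aPVAT the controls at 2.12 to 2.39 CPM all lay under the cKO libraries at 2.47 to 3.07 CPM without a call (0.26, adjusted p = 0.612). Bdh2, a cytosolic relative, was lower still, at 0.252 to 0.487 CPM in tPVAT controls and 0.249 to 0.458 CPM in tPVAT cKO (-0.07, adjusted p = 0.896). Per kilobase, Oxct1 exceeded Bdh1 by 201 ± 53.9 times in tPVAT controls and by 111 ± 10.4 times in aPVAT controls (SD, n = 4 each), with no overlap between the ranges of 139 to 268 and 97.1 to 119.

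Whether the genotype effect differed between depots was tested directly, as the aPVAT effect minus the tPVAT effect on the log2 scale. Of the 29 genes 1 was called, beside 0.784% of all genes. This was Acad8, with a difference of 0.43 (SE 0.0904, adjusted p = 0.0354) between -0.50 in tPVAT and -0.07 in aPVAT. The call was lost in 11 of 15 fits that left out a library (adjusted p 0.051 to 0.105), and held without aPVAT control 1, tPVAT control 2 and tPVAT cKO 1 or 2. Slc3a2 had a larger difference of -0.67 that missed the threshold (SE 0.159, adjusted p = 0.0717) and passed it with DESeq2 (adjusted p = 0.00882) or without aPVAT control 2 (-0.73, adjusted p = 0.0423). For Slc43a2 the difference was 0.52 (adjusted p = 0.155, but 0.53 and adjusted p = 0.0472 with DESeq2). For Slc43a1 it was -0.58 (adjusted p = 0.321, but -0.80 and adjusted p = 0.0284 without aPVAT cKO 4) and for Bcat2 -0.45 (adjusted p = 0.459). So the calls in thoracic fat and their absence in abdominal fat do not show a difference between depots for the 11 other genes called in tPVAT.

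The depot was the larger contrast for these genes. Between controls, 24 of 29 genes differed between aPVAT and tPVAT, 82.8% beside 56.6% of all genes. In aPVAT 6 were higher (29.3% of all genes were) and 18 lower (27.3% of all genes were), and the median log2 fold change was -0.44 against 0.04 for all genes. The comparison depended on the scaling, since library totals taken without mitochondrial genes moved the median of all genes to 0.40, and upper quartile scaling to 0.14. With the totals without mitochondrial genes 10 of the 29 genes were higher and 11 lower, as were 10613 and 2730 of all genes, where TMM scaling gave 5750 and 5372. Upper quartile scaling gave 7 higher and 16 lower of the 29 genes, and 7060 and 4400 of all genes.

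Under TMM scaling 3 of the 4 transporter genes and both transaminase genes were called between the control depots, and all but Slc43a2 of these were higher in abdominal fat. Among transporters and transaminases, Slc43a1 was higher by 1.85 on the log2 scale (SE 0.139, adjusted p = 1.77e-08), Bcat2 by 1.17, Bcat1 by 0.95 and Slc7a5 by 0.93, whereas Slc43a2 was lower (-0.79) and Slc3a2 was not called (0.12, adjusted p = 0.363). With totals without mitochondrial genes Slc3a2 was called as well (0.48, adjusted p = 0.000786). All 5 genes of the dehydrogenase complex and its regulators were lower, Dbt by -1.21 (SE 0.154, adjusted p = 6.36e-06), Bckdha by -1.12 (SE 0.0787, adjusted p = 8.59e-09), Ppm1k by -0.77, Bckdk by -0.71 and Bckdhb by -0.65. With totals without mitochondrial genes Ppm1k and Bckdhb were no longer called (-0.40 and -0.29). All 3 propionyl-CoA genes were lower, with Mcee at 26.7 to 36.0 CPM in aPVAT controls against 82.1 to 97.3 CPM in tPVAT controls (-1.50, SE 0.0905, adjusted p = 1.55e-09), Pccb at -1.06 and Pcca at -0.87.

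In the middle of the pathway 5 of 6 valine and isoleucine genes were lower in abdominal controls, led by Acat1 (-1.25, SE 0.0749, adjusted p = 1.38e-09), with Hibch at -0.86, Hibadh at -0.74, Hsd17b10 at -0.44 and Aldh6a1 at -0.25. Aldh6a1 turned to 0.12 and Hsd17b10 was no longer called (-0.08) with totals without mitochondrial genes. Abat was the sixth and was higher (0.94, adjusted p = 6.70e-06), at 30.3 to 35.3 CPM against 14.7 to 20.6 CPM. Of the acyl-CoA dehydrogenases Acad8 (-0.74) and Acadsb (-0.42, adjusted p = 0.0441) were lower, and Ivd was not called, with overlapping levels (0.01, adjusted p = 0.967, 202 to 273 CPM against 219 to 250 CPM). Of the leucine genes Auh was lower at -0.52, and those not called were Mccc2 at -0.20 (adjusted p = 0.0546) and Mccc1 at -0.01 (adjusted p = 0.89), which turned to 0.34 with totals without mitochondrial genes. Among ketone genes Oxct1 was lower (-0.42, adjusted p = 9.92e-05), Bdh1 was not called (0.38, adjusted p = 0.0859), and Bdh2 was higher, at 0.993 to 1.33 CPM against 0.252 to 0.487 CPM (1.71, SE 0.235, adjusted p = 1.44e-05). With totals without mitochondrial genes Oxct1 (-0.07), Auh (-0.17) and Acadsb (-0.05) were no longer called. Ivd (0.36, adjusted p = 0.00129), Mccc1 (0.34, adjusted p = 0.000158) and Bdh1 (0.74, adjusted p = 0.00255) were then called higher. Mccc2 was called lower in several other settings, among them RLE scaling (-0.22, adjusted p = 0.0343) and DESeq2 (-0.22, adjusted p = 0.0262).

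The library aPVAT control 1 stood low in 5 of these genes. It was at 9.94 CPM for Ppm1k where the other aPVAT controls were at 18.4 to 24.2, at 83.1 CPM for Acadsb where they were at 149 to 193, and at 40.8 CPM for Dbt where they were at 62.9 to 72.9. For Hibch it was at 91.6 CPM against 108 to 121, and for Aldh6a1 at 430 CPM against 495 to 535. The library was not low throughout. For other genes aPVAT control 1 was the highest of the aPVAT controls, among them Slc3a2 (96.6 CPM), Bckdha (205 CPM), Ivd (273 CPM) and Acat1 (290 CPM). For many genes aPVAT control 2 was the lowest, among them Bckdha (163 CPM), Ivd (202 CPM), Acat1 (247 CPM) and Oxct1 (221 CPM). It was the highest aPVAT control for Ppm1k, Acadsb, Dbt and Aldh6a1. Without aPVAT control 1 the depot difference of Acadsb was -0.23 and was not called (adjusted p = 0.0506). It was also not called without aPVAT control 3 or 4 or tPVAT control 1, 3 or 4 (adjusted p up to 0.0877). Mccc2 was called lower without aPVAT control 1 (-0.27, adjusted p = 0.00903) or tPVAT control 3 (-0.24, adjusted p = 0.0357), and Bdh1 higher without tPVAT control 3 (0.53, adjusted p = 0.0251). Without aPVAT control 1 Dbt was at -1.06, Hibch at -0.79, Ppm1k at -0.57 and Aldh6a1 at -0.18, all still lower.

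Among cKO libraries the depots differed for 24 of 29 genes as well, beside 52.6% of all genes. In aPVAT 8 genes were higher (27.2% of all genes were) and 16 lower (25.4% of all genes were), with a median of -0.31 against 0.04 for all genes. Slc43a1 (1.27), Slc7a5 (1.15), Bcat1 (0.79), Bcat2 (0.73), Abat (0.89) and Bdh2 (1.68) were again higher, joined by Ivd (0.34, adjusted p = 0.0119) and Bdh1 (0.64, adjusted p = 0.0118). Mcee (-1.38), Acat1 (-1.11), Dbt (-1.09) and Pccb (-1.02) were the lowest. Slc3a2, not called between the controls, was lower in aPVAT cKO than in tPVAT cKO (-0.55, SE 0.118, adjusted p = 0.00109). That call was lost with totals without mitochondrial genes (-0.20, adjusted p = 0.13), as were those of Bckdhb (-0.24), Ppm1k (-0.26) and Auh (-0.12). Slc43a2 was lower by -0.27 with overlap (adjusted p = 0.0438), which ended when any of 5 libraries, aPVAT cKO 1 and 4 and tPVAT cKO 1, 3 and 4, was dropped (adjusted p 0.0606 to 0.193). Without aPVAT cKO 4 the call of Ivd was also lost (0.21, adjusted p = 0.10), and without aPVAT cKO 3 that of Bdh1 (0.54, adjusted p = 0.0578). Oxct1, not called at -0.18 (adjusted p = 0.0637), was called without aPVAT cKO 4 (-0.23, adjusted p = 0.0415) or tPVAT cKO 2 (-0.22, adjusted p = 0.0164). With totals without mitochondrial genes the median of all genes moved to 0.39, 11 of the 29 genes were higher and 9 lower, and Slc43a2 (0.08), Acad8 (0.04), Mccc2 (0.31), Hsd17b10 (0.04) and Oxct1 (0.17) turned to the positive side. Of these Mccc2 (adjusted p = 0.00237) and Oxct1 (adjusted p = 0.0324) were then called higher, as was Mccc1 (0.39, adjusted p = 0.000111). Each depot contrast shares a group with each genotype contrast, whereas the depot contrasts share no libraries with each other, nor do the genotype contrasts.

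**Figure D3:**
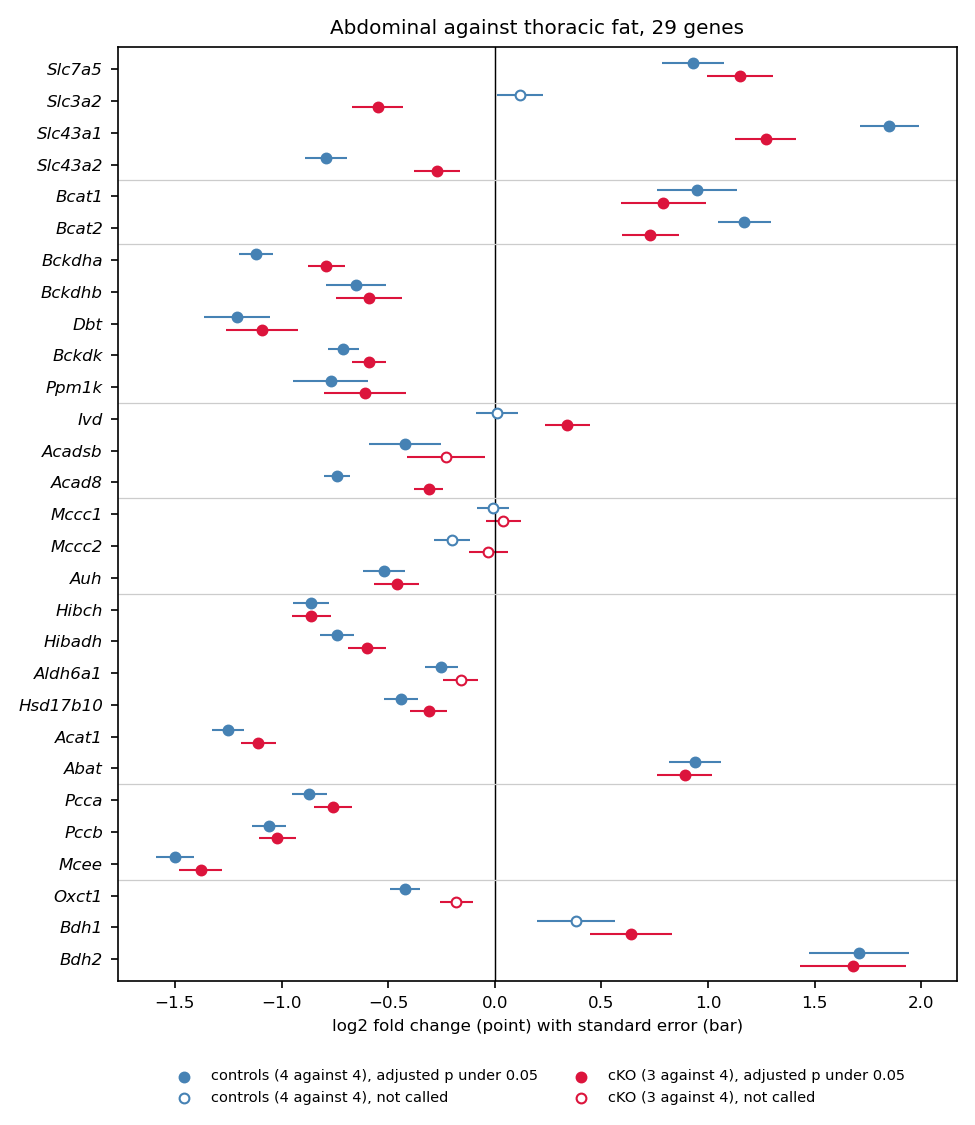
Log2 fold change of aPVAT against tPVAT for each of the 29 genes, with the standard error as a bar, among controls (4 against 4 libraries) and among cKO (3 against 4), under TMM scaling. Filled points are genes called at an adjusted p under 0.05; 24 are filled in each contrast, and points right of 0 are mostly transporters, transaminases, Abat and Bdh2.

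**Figure D4:**
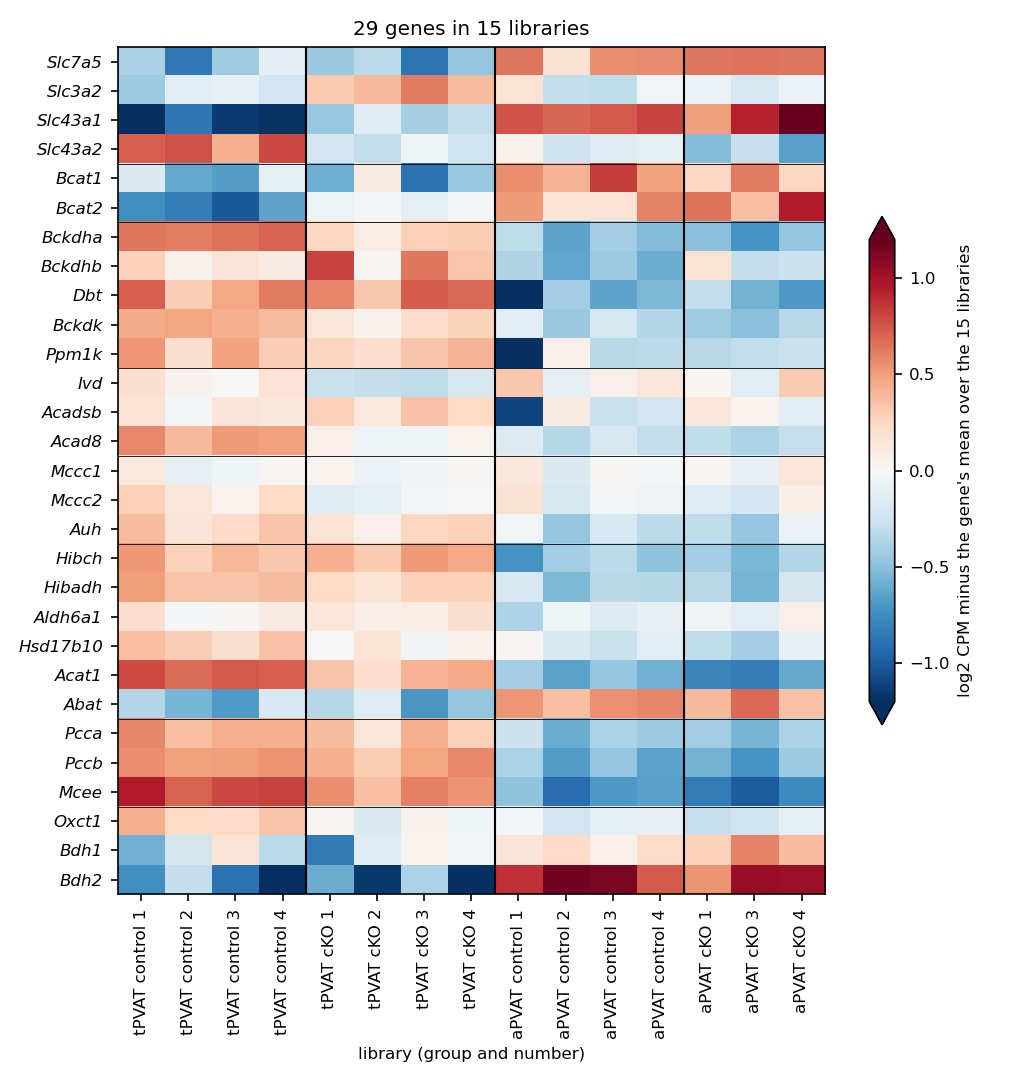
Log2 CPM of each of the 29 genes in each of the 15 libraries, minus the mean of the gene over the libraries, with colours limited to 1.2 in either direction. Black lines separate groups and pathway steps; most rows change colour between the thoracic and the abdominal libraries, and aPVAT control 1 stands low in Dbt, Ppm1k and Acadsb.

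Set beside each other per kilobase of merged exon, the levels of the 29 genes spanned a wide range. Merged exons take in all annotated transcripts, from 956 bases in Mcee to 10952 in Mccc1. The order of genes and the ratios per kilobase therefore depend on the annotation, and the transcripts present were not determined. In tPVAT controls Bckdha had the highest level at 209 ± 5.89 CPM per kilobase, followed by Acat1 at 170 ± 5.56, Pccb at 145 ± 3.13 and Aldh6a1 at 101 ± 7.23. Bdh2 at 0.0833 ± 0.0232, Bcat1 at 0.370 ± 0.0726 and Bdh1 at 0.452 ± 0.101 were at the bottom (SD, n = 4). The range of Bckdha over the 4 libraries, 204 to 218, did not touch that of Acat1, 164 to 177, while Bdh1 and Bcat1 were within their spread of each other. Bcat2 ranked 17 of 29 in tPVAT controls at 26.1 ± 2.81 CPM per kilobase, 9 in tPVAT cKO at 43.8 ± 1.28 (n = 4), 7 in aPVAT controls at 58.8 ± 9.25 (n = 4) and 3 in aPVAT cKO at 72.4 ± 15.0 (n = 3).

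**Figure D5:**
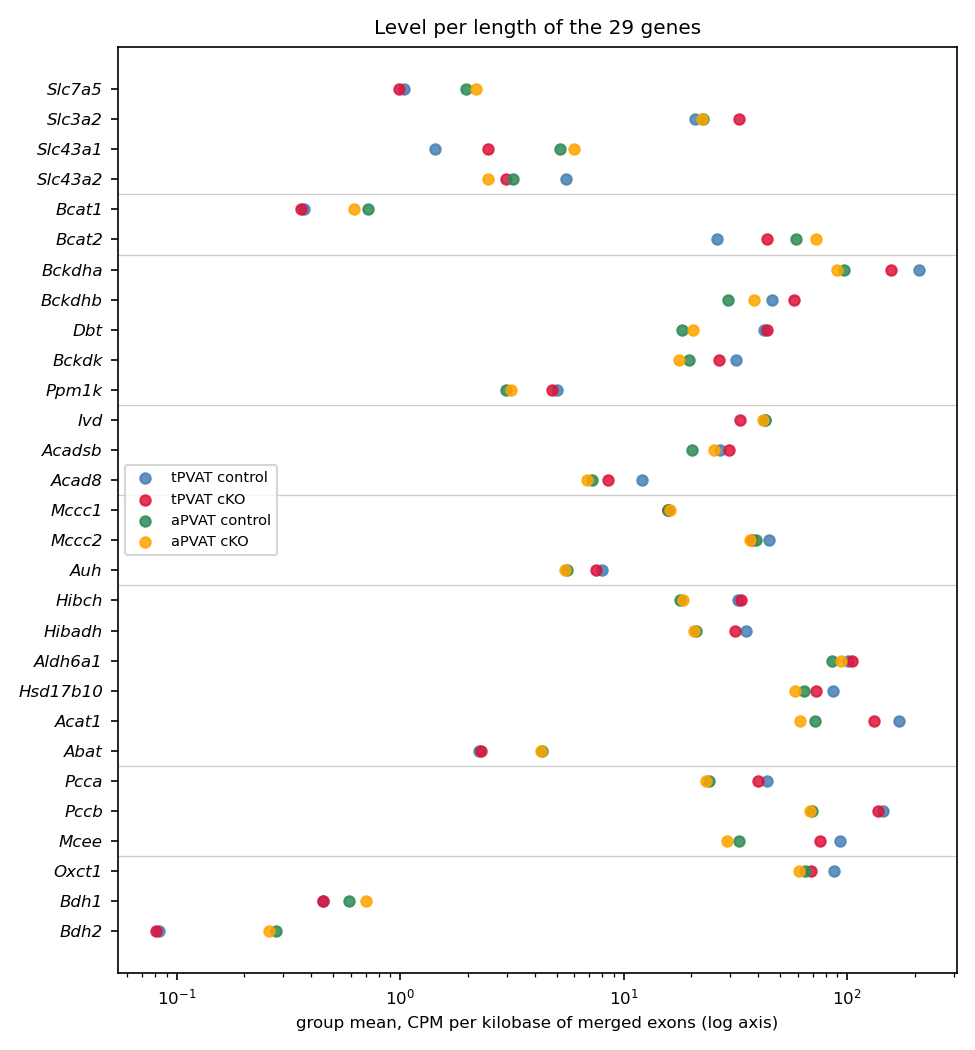
Group mean level of each of the 29 genes in CPM per kilobase of merged exons, on a log axis, with a point for each of the 4 groups. Bckdha, Acat1, Pccb and Aldh6a1 lie at the right in tPVAT controls, and Bcat1, Bdh1 and Bdh2 lie under 1 CPM per kilobase in every group.

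Other genes of the pathway were followed as a list of 30, of which 28 were tested. In thoracic fat 2 rose and 9 fell, beside 5.44% and 6.61% of all genes, with a median of -0.07. In abdominal fat 1.53% of all genes were called in either direction. The genes that rose were Aldh2, a mitochondrial aldehyde dehydrogenase (593 to 792 CPM, 0.42, adjusted p = 0.00218), and Slc1a5, the glutamine carrier ASCT2 that supplies the exchange partner of LAT1 (431 to 571 CPM, 0.40, adjusted p = 0.0282). Those that fell were led by genes that fatty acid oxidation also uses, Echs1 (-0.46, adjusted p = 0.00161), Acads (-0.47, adjusted p = 0.00178), Acaa2 (-0.64, adjusted p = 0.00599), Hadhb (-0.46, adjusted p = 0.00674) and Acadm (-0.36, adjusted p = 0.0162). In abdominal fat 4 of this list fell and 0 rose, with a median of -0.09, namely Acaa2 (-1.15, adjusted p = 6.34e-04), Hadhb (-0.59, adjusted p = 0.00978), Acadm (-0.45, adjusted p = 0.0292) and Hadha (-0.46, adjusted p = 0.0434). Slc25a44, the mitochondrial carrier of branched-chain amino acids, and Klf15, a transcription factor known to act on their breakdown, were singled out after their values were seen. Slc25a44 was not called in either depot (-0.08, adjusted p = 0.587, and -0.07, adjusted p = 0.805). Klf15 was at 39.3 to 54.7 CPM in tPVAT controls and 28.3 to 42.3 CPM in tPVAT cKO, overlapping and not called (-0.37, adjusted p = 0.089), and in aPVAT at 0.09 (adjusted p = 0.827). Between controls 5 of the 28 were higher in aPVAT and 20 lower under TMM scaling, with a median of -0.91, where 29.3% of all genes were higher and 27.3% lower. The list counts between depots were not recomputed with the scaling that moved the median of all genes to 0.40. Hadhb (-2.13), Hadha (-1.95), Acadm (-1.69) and Acaa2 (-2.35) were among the lower genes, and Slc1a5 (1.15) among the higher.

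Of 15 other ketone genes 13 were tested, and 2 rose and 2 fell in thoracic fat (median -0.06), beside 5.44% and 6.61% of all genes. Hcar2, a surface receptor for hydroxybutyrate, rose from 8.48 to 15.3 CPM (0.85, adjusted p = 0.00706), and Slc16a7, a monocarboxylate carrier, by 0.26 (adjusted p = 0.043). In abdominal fat 0 of 13 were called, beside 1.53% of all genes. Between controls 4 were higher in aPVAT and 6 lower under TMM scaling, beside 29.3% and 27.3% of all genes. Among them were Hcar2 (1.43) and the carrier gene Slc16a1, which had 342 CPM in tPVAT controls and 71.3 CPM in aPVAT controls (-2.26, adjusted p = 8.37e-07). Of 14 genes of amino acid sensing 1 was called in each depot for genotype, Trib3 in tPVAT (-0.34, adjusted p = 0.0473, 4.05 to 3.21 CPM) and Mtor in aPVAT (-0.37, adjusted p = 0.0337, 66.4 to 51.5 CPM). Over all genes 12.0% were called in tPVAT and 1.53% in aPVAT.

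Markers of other cells moved with these contrasts and their part in the results was not tested. The counts for genotype stand beside 5.44% of all genes higher and 6.61% lower in thoracic fat, and 1.53% called in abdominal fat. In thoracic fat 4 of 9 tested heart muscle markers fell in the cKO (Nppa by -2.38, Myl4 by -0.71, Actc1 by -0.70 and Ryr2 by -0.62), and their summed level was 236 to 314 CPM in controls against 90.6 to 233 CPM in cKO, with 0 of 10 markers at 0. Heart muscle is known to express Oxct1 and the branched-chain genes strongly. In aPVAT the same sum was 23.5 to 28.6 CPM in all libraries. Of the adipocyte markers 3 of 12 rose in thoracic fat, Adipoq (0.41), Fabp4 (0.37) and Plin1 (0.34). The sum of all 12 was 26730 to 29193 CPM without the Cre and 27922 to 32190 CPM with it. Among endothelial markers 3 of 10 fell (Tie1, Kdr and Esam), with sums of 1073 to 1228 CPM and 955 to 1020 CPM. Of 8 smooth muscle markers 1 fell, Des (-0.45). The lists for macrophages, T and B cells, skeletal muscle, fibroblasts, mesothelium, nerve and Schwann cells, and kidney, liver and adrenal had 0 calls for genotype in tPVAT, and in aPVAT 1, the fibroblast marker Dpt (-0.70). From the list of 22 respiratory chain genes of the nuclear genome, 21 were lower in the cKO of thoracic fat (median -0.37) and 4 in that of abdominal fat (median -0.31), and of 11 thermogenic markers 2 and 8 fell. Between controls of the depots the adipocyte sum was 18751 to 22003 CPM in aPVAT, under the range of tPVAT, and all 22 respiratory genes were lower (median -1.63). All 11 thermogenic markers (median -2.94), all 9 heart muscle markers (median -3.96) and 8 of 10 skeletal muscle markers were lower in aPVAT controls. Of the skeletal muscle markers 1 was higher, and of 10 endothelial markers 8 were higher and 1 lower. Of 12 adipocyte markers 2 were higher and 6 lower. All 12 macrophage markers, all 10 markers of nerve and Schwann cells and 6 of 8 fibroblast markers were higher in aPVAT controls. Of 10 tested T cell markers 7 were higher and 1 lower, and of 8 B cell markers 5 were higher and 0 lower. These depot counts are under TMM scaling, beside 29.3% of all genes higher and 27.3% lower, and were not recomputed with other scalings.

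The RefSeq promoter table (GRCm38.p6, 250 bases before to 50 bases after each start) held 25 of the 29 genes in 32 windows, without Abat, Acat1, Dbt and Slc7a5. Both strands were searched for exact letters of 7 motifs. The NRF1 core GCGCATGC was in 1 of the 32 windows, that of Pccb, where it starts 35 bases before the RefSeq start site, and in 2.71% of all 32851 windows. There was no match among the 32 windows to the ERR element TCAAGGTCA (0.42% of all windows), its shorter core AAGGTCA (4.72%), the PPAR element AGGTCANAGGTCA (0.04%), the ATF4 element TGATGNAAT (0.96%), the cyclic AMP element TGACGTCA (1.79%) or the C/EBP element TTGCGCAA (0.18%). AAGGTCA lies inside the ERR element and was searched after the matches of the others had been seen. A match or its lack describes these letters in these windows only.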

How the data were processed

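The authors deposited a table of raw counts per Ensembl gene, whole numbers with no normalization, for 15 libraries. The submitters' processing notes give mm10 as the build and list 3 tools, DESeq2 1.42.1, Salmon and Subread, with no word on what each did. Libraries came from a stranded mRNA kit per the labels' protocols. No source used here gives the tool, annotation or strand setting behind the counts, so reads of genes that overlap on opposite strands may not be told apart. Names, exons and coordinates came from GENCODE M21 (GRCm38), which matched 42468 of 43352 identifiers.

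Genes with low counts were removed with filterByExpr (minimum count 10), which left 19645. Counts were scaled by TMM and tested with edgeR 4.0.16 (quasi-likelihood F test) in R 4.3.3, in 1 model with a mean for each of 4 groups over all 15 libraries. Adjusted p-values are Benjamini-Hochberg over all genes tested. Levels per length divide CPM by merged exon length. Tested on simulated data before use, the script recovered most of the changes put in, all in genes with high counts. Changes as small as that of Bckdha in thoracic fat, or smaller, were not simulated. The 95% intervals take the standard error from the fit and a normal approximation, so they are somewhat narrower than the F test implies. Library totals of 37761133 to 68735385 counts set the counting error.

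Alternatives were other scalings, no filter, DESeq2 1.42.0, voom (limma 3.58.1) with quality weights, only the compared libraries, the number in the titles as a block, and leaving out libraries. The members and lists were chosen with earlier results of these data known. All 29 genes are named; of other pathway lists at most 6 called genes with the smallest p in each contrast are named, together with any gene of a count of 5 or fewer, and Prdm16 as the check of the labels. Some genes that this rule would name are not reported here. Cell type lists are given by their summed level. The labels do not say that a number marks a shared animal, litter or day. The correlation of deviations from group means between samples of the same number ran from -0.222 to 0.169 over all groups compared, across genotypes too. Between the depots of the same genotype it ran from -0.03 to 0.165, against -0.134 to 0.116 for samples of different numbers. The numbers were not taken as pairs.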

Additional observations from a re-analysis of the deposited data

Results flagged for a closer look

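The effect of genotype on Acad8 differed between the depots by a test of the difference itself, 0.43 on the log2 scale (edgeR, adjusted p = 0.0354), from -0.50 in thoracic fat, lower in 4 of 4 cKO libraries than in any control, and -0.07 in abdominal fat, where the groups overlapped. It was not called without the low-count filter (adjusted p = 0.0798), without aPVAT control 2 and aPVAT cKO 4 together (adjusted p = 0.116), or in 11 of 15 fits that left out a library. Over 87 groups of 4 libraries, 0 libraries stood apart from the rest of their group by Dixon's criterion. The aPVAT cKO group, with 3 libraries, was not examined in this way, so aPVAT cKO 4 was not checked.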

How the results depend on the processing

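The number of the 29 genes called in thoracic fat was 12 and lay between 8 and 12 when libraries were left out in turn. The matching ranges were 0 to 0 in abdominal fat, 23 to 25 for the depots in controls, 23 to 25 for the depots in cKO and 0 to 1 for the difference between depots. Over all genes the calls were 2367, 301, 11122, 10325 and 154, with leave-one-out ranges of 1708 to 1993, 161 to 398 (161 without aPVAT cKO 1), 10242 to 11158, 9090 to 10150 and 114 to 189. Voom with quality weights gave 4080 and a fit of only the compared libraries 3726 genes in thoracic fat. In abdominal fat DESeq2 gave 585 genes and only the compared libraries 92. DESeq2 gave 346 genes for the difference between depots, with 3 of the 29, and voom with quality weights gave 2 of the 29. Library totals without mitochondrial genes gave 1 of the 29 in abdominal fat. In thoracic fat that scaling split the calls over all genes into 964 higher and 1779 lower, where TMM gave 1069 and 1298, and in abdominal fat into 130 and 302, where TMM gave 146 and 155. It turned the depot differences of Mccc1 (0.34) and Aldh6a1 (0.12) in controls and of Slc43a2 (0.08), Acad8 (0.04), Mccc2 (0.31), Hsd17b10 (0.04) and Oxct1 (0.17) in cKO, and shifted the median of all genes as given above. In the other changes the cause was not tested. With the replicate block, 13, 0, 25, 24 and 1 of the 29 genes were called; Bckdhb was then called in thoracic fat (0.31, adjusted p = 0.0429). As a random replicate block, genotype and number gave 12 in thoracic fat.

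In thoracic fat Slc3a2, Slc43a1, Slc43a2, Bcat2, Bckdha, Acad8, Acat1 and Oxct1 kept their calls in every fit without a library, and Bckdk, Ivd, Hsd17b10 and Mcee did not. The 4 and 3 libraries of a group limit what can be called. An uncalled gene is not shown to be unchanged, and its interval, somewhat too narrow, gives only roughly the sizes left. Counting error is small except for Bdh1, Bdh2, Bcat1 and Slc7a5.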
